A study of Mus musculus with 12 samples.

Results

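The genes described here code for the proteins of the cytosolic ribosome, as measured in alveolar macrophages of mice with an intact liver and after removal of most of the liver. Members were chosen by gene symbol in the probe annotation: Rpl or Rps with a number, Rplp0 to Rplp2, or Rpsa, with the brightest probe set standing for a gene. The rule found 63 genes of 19505 with a symbol of their own, 39 of the large and 24 of the small subunit, each with 1 probe set among the 22206 tested. Lungs of male C57 Black mice gave the macrophages, which were picked by magnetic beads bearing antibody against Siglec-F, a lectin that eosinophils also carry. The 4 groups were animals with an intact liver, as the control, and animals from which 70% of the liver had been resected 1, 3 or 7 days before. Each group had 3 biological replicates, each on 1 Clariom S mouse array, and the labels give neither the age of the animals nor whether animals were pooled.

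A cytosolic ribosome holds 1 copy of nearly every one of these proteins, joined to ribosomal RNA in a small subunit that reads the mRNA and a large subunit that forms the peptide bond. Their genes are among the most strongly transcribed in most cells and tend to be expressed together. Their mRNAs usually start with a cytosine followed by a run of pyrimidines, the terminal oligopyrimidine tract, through which mTORC1 and Larp1 control their translation and storage. The array measures the amount of mRNA relative to all RNA on the array, so neither ribosome number nor translation was measured. In such bulk samples fewer cells of a type and less of an mRNA per cell cannot be told apart.

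The start regions of several members are shown because a pyrimidine run at the start is the known regulatory feature of these mRNAs. RefSeq starts on GRCm38.p6 were found for 50 of the 63 members, as 61 start windows. Each line below gives 15 bases before and 15 bases after a listed start, 5′ to 3′ on the gene's strand, and capitals mark the longest run of C and T in that window.
Rpl7a, chr2:26910792-26910821, plus strand: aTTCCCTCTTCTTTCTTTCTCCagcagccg
Rpl28, chr7:4792950-4792979, plus strand: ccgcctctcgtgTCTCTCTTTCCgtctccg
Rps24, chr14:24490663-24490692, plus strand: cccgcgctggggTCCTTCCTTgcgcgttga
Rps9, chr7:3704026-3704055, plus strand: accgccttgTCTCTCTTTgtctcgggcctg
Rpl4, chr9:64173372-64173401, plus strand: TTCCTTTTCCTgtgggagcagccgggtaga
Rpl39, chrX:37085208-37085237, minus strand: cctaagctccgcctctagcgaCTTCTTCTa
Rps15, chr10:80292416-80292445, plus strand: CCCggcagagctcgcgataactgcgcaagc

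Runs of at least 8 pyrimidines lay in 21 of the 61 member windows, or 34.4%, against 12% of all 32851 start windows in the table. Rps15 is printed as a member whose listed window lacks such a run. The motif CCGGAAG, on either strand of the longer window from 250 bases before to 50 after the start, was in 36.1% of member windows and 8.86% of all windows. CTCTTTC, which can overlap the pyrimidine run, was in 29.5% and 8.16%, and TATAAA in 11.5% and 13.6%. These are matches of letters around annotated starts, and starts in these macrophages were not measured.

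On the intact arrays the family was tightly reproduced. The range over the 3 arrays had a median of 0.23 on the log2 scale over the 63 members, it was under 0.2 for 28 of them, and the widest was 0.76 for Rpl22l1, a paralog of Rpl22. In all, 56 members, 34 large and 22 small, averaged above 5.69 over the 12 arrays, the highest upper 95% limit of the intron controls, which serve as a measure of background. The other 7 did not: Rpl27, a regular large subunit protein, and Rpl3l, Rpl10l, Rpl22l1, Rpl39l, Rps27l and Rps4l. The last 6 carry the names of paralogs, of which Rpl10l and Rpl39l are known from testis and Rpl3l from muscle, and RefSeq lists Rps4l as a transcribed pseudogene. Ribosomal protein genes have many processed pseudogenes and some close paralogs, so a probe set named for 1 gene may also catch RNA of another copy.

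**Figure D1:**
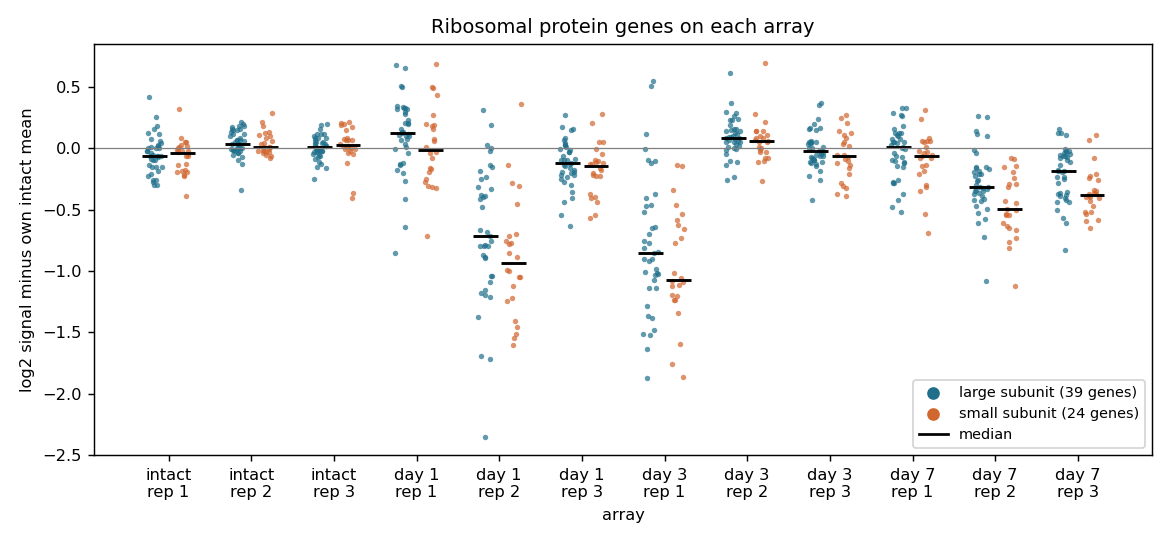
Each point is 1 of the 63 genes on 1 of the 12 arrays, as its log2 signal minus its own mean over the 3 intact arrays, with large and small subunit apart and the median as a bar. Day 1 replicate 2 (median -0.78) and day 3 replicate 1 (-0.91) lie below the rest, day 7 replicates 2 and 3 lie slightly below the line, and the other resected arrays lie close to it.

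After resection the family was low as a block on day 1 replicate 2 and day 3 replicate 1. It was less far down on day 7 replicates 2 and 3, and on no day was it low to that degree on all arrays. Relative to each gene's intact mean, the median over the 63 members was 0.10, -0.78 and -0.13 on the 3 arrays of day 1. It was -0.91, 0.08 and -0.04 at day 3, and -0.03, -0.33 and -0.26 at day 7. On day 1 replicate 2, 58 of 63 members lay under their intact mean and 21 of them by more than 1 log2 unit. Day 3 replicate 1 had 60 of 63 under it, and 29 by more than 1 unit. The remaining arrays of those days were closer to the intact level. Day 1 replicate 1 and day 3 replicate 2 held the highest of all 12 values for 19 and 17 members. Members under their intact mean numbered 23 and 49 of 63 on day 1 replicates 1 and 3, and 16 and 36 on day 3 replicates 2 and 3. At day 7 they numbered 34, 58 and 56 on replicates 1, 2 and 3, or 54.0%, 92.1% and 88.9%. Of probe sets above the background limit, 35.3%, 72.0% and 54.1% did so there, and 51.9% on day 1 replicate 3.

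Within a group the spread of the members widened accordingly. Their median SD over 3 arrays was 0.12 in intact samples, 0.47 at day 1, 0.56 at day 3 and 0.21 at day 7, against 0.14, 0.38, 0.31 and 0.29 for all 4268 probe sets above the background limit. Day 1 replicate 2 lay below both other day 1 arrays for 54 members (85.7%), where 43.6% of all probe sets tested and 73.6% of those above the limit did so. For day 3 replicate 1 the count was 58 members (92.1%), against 38.1% of all probe sets and 50.5% of those above the limit. The median gap to the other arrays of its group there was -0.97 for the members and -0.12 for all probe sets above the limit. On day 3 replicate 1 the members thus lay much further down than bright probe sets in general, and on day 1 replicate 2 the bright probe sets were low as well, with a gap of -0.52 against -0.73 for the members.

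The low arrays also had unusual control probe sets. How well exon controls were separated from intron controls, as an area under the curve, was 0.809 for day 1 replicate 2, 0.832 for day 3 replicate 1 and 0.838 for day 7 replicate 2, while the remaining arrays had 0.852 to 0.888. For dap, a labelling control, the signal was 6.88 on day 3 replicate 1, 7.77 on day 7 replicate 2 and 6.47 on day 7 replicate 3, and at most 2.89 elsewhere. The part of weak separation and of the labelling control in the members' values was not tested. Where results below leave out 3 arrays, these are the 3 of weakest separation.

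**Figure D2:**
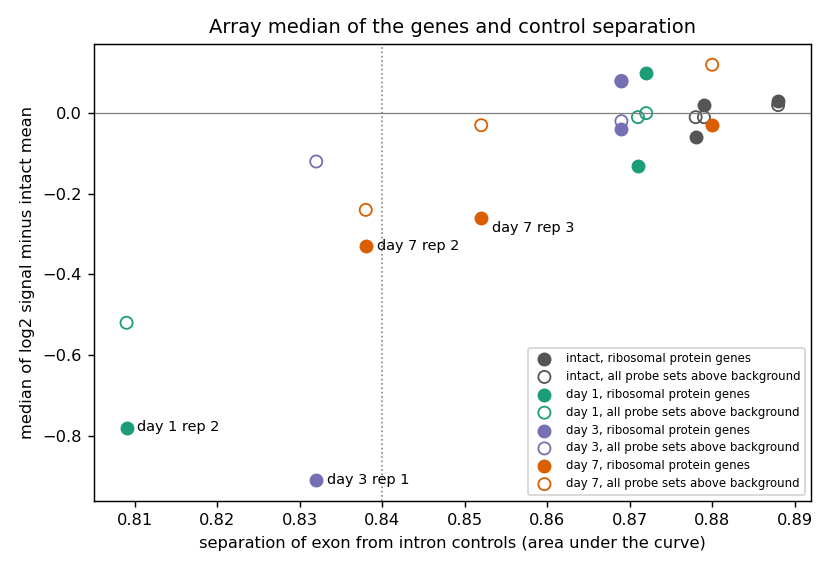
The y axis is the median log2 signal minus the intact mean, for the 63 ribosomal protein genes (filled) and for all probe sets above background (open), and the x axis is the separation of exon from intron controls on each of the 12 arrays. The 3 arrays left of the dotted line at 0.84 include the lowest filled points, and on day 3 replicate 1 the filled point (-0.91) lies far under the open one (-0.12).

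In the limma comparison of day 1 with intact samples, none of the 63 members passed an adjusted p of 0.05, which none of the 22206 probe sets did either (0%). At an unadjusted p under 0.05 there were 2 members, or 3.17%, both lower, where 8.94% of all probe sets reached it. The median difference over the members was -0.29, with 54 of 63 lower in mean, against -0.19 over the probe sets above the limit, of which 72.9% were lower. It was -0.131 after quantile normalization of the arrays. Without day 1 replicate 2 the median was 0.00, and without all 3 arrays 31 of 63 members were lower.

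Rpl21, a large subunit protein of eukaryotes and archaea, and Rpl29, a small basic protein found in eukaryotes, were the 2 members with an unadjusted p under 0.05 at day 1. Rpl21 read 10.26, 10.43 and 10.49 on the intact arrays, 9.75, 9.18 and 9.76 at day 1, 9.92, 10.54 and 10.28 at day 3, and 9.91, 10.09 and 9.89 at day 7. All day 1 arrays lay under all intact arrays, as did those of day 7, while day 3 overlapped the intact range. Its day 1 difference was -0.82 ± 0.20 (log2, SE, n = 3 per group, limma adjusted p = 0.286). The size held without the 3 arrays, at -0.63 ± 0.16, with a limma adjusted p of 0.136. Over 23 alternatives it ran from -0.92 to -0.63, with adjusted p between 0.0971 and 0.874 in limma. Between day 3 and day 1 Rpl21 differed by 0.68 ± 0.20 (limma adjusted p = 0.4), and there too the arrays did not overlap.

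Rpl29 read 8.51, 8.50 and 8.51 in intact samples, 7.65, 7.62 and 7.96 at day 1, 7.66, 8.25 and 8.41 at day 3, and 8.56, 8.13 and 7.90 at day 7. It was low on all 3 day 1 arrays, including the 2 with ordinary controls, and at day 7 it overlapped the intact values. The difference at day 1 was -0.76 ± 0.22 (log2, SE, n = 3 per group, limma adjusted p = 0.343) and -0.70 ± 0.20 without the 3 arrays. Over the 23 alternatives its limma adjusted p lay between 0.149 and 0.874. For these members the day 1 values did not rest on replicate 2 alone, unlike the median of the family.

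The largest day 1 difference in the family belonged to Rpl39, a very small protein that lines the exit tunnel, and it came from 1 array. Rpl39 read 8.40, 8.62 and 8.63 in intact samples, 8.37, 6.20 and 8.33 at day 1, 6.68, 8.71 and 8.79 at day 3, and 8.45, 7.47 and 8.18 at day 7. Its day 1 difference of -0.92 ± 0.60 (limma adjusted p = 0.656) became -0.20 ± 0.16 without the 3 arrays. No other member lay as far behind its group: the gap was -2.15 on day 1 replicate 2 and -2.07 on day 3 replicate 1. A further 11 members also had gaps under -1 on both arrays, making 12 in all. They include Rps19 (-1.69 and -1.62), the gene first linked to Diamond-Blackfan anaemia, Rpl38 (-1.73 and -1.24) and Rps10 (-1.29 and -1.59) of the small subunit head.

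Day 3 against intact gave 0 of 63 members at an adjusted p of 0.05 in limma, where 0.0045% of all probe sets passed. There was 1 member at an unadjusted p under 0.05, Rps24, or 1.59% against 4.46% of all. Here 57 of 63 members were lower in mean and the median difference was -0.29, against -0.03 over the probe sets above the limit. Without day 3 replicate 1 the median was 0.00 and 27 of 63 members were lower. The means of day 3 therefore carried the low values of a single array.

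Some members went against the rest on that array. Rpl28, a eukaryotic large subunit protein, read 10.45, 10.48 and 10.59 in intact samples and 11.01, 10.77 and 10.56 at day 3. Rpl23, a conserved protein on the face that meets the small subunit, read 9.85, 10.33 and 10.16 in intact samples and 10.66, 10.17 and 10.31 at day 3. For both, replicate 1 held the highest day 3 value, while the family's median there was the lowest of all arrays. Rpl4, whose long loop reaches into the exit tunnel, read 10.44, 10.36 and 10.34 at day 3 against 10.30, 10.38 and 10.30 in intact samples. Along with the dim paralog Rpl39l, these were the only members of 63 that lay above both other day 3 arrays on replicate 1. Their day 3 differences were 0.27 ± 0.22 for Rpl28, 0.27 ± 0.26 for Rpl23 and 0.05 ± 0.18 for Rpl4, none past the test.

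At day 7 against intact, limma again called 0 of 63 members at an adjusted p of 0.05, where 0.018% of all probe sets passed. Rps24 was the only one at an unadjusted p under 0.05 (1.59% against 5.7% of all). The median difference was -0.21, with 58 of 63 members lower in mean, against -0.05 and 58.4% lower over the probe sets above the limit. Without the 3 arrays the day 7 median was -0.18 with 49 of 63 members lower, while the probe sets above the limit then had a median of 0.04. It was -0.03 when the 3 arrays with the labelling control were left out, which leaves only replicate 1 at day 7.

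Without the 3 arrays limma still called 0 of 63 members in each of these comparisons, while 0.32%, 1.13% and 1.26% of all probe sets then passed an adjusted p of 0.05 at days 1, 3 and 7. Members at an unadjusted p under 0.05 numbered 3, 1 and 6, all lower. The 6 of day 7 were Rpl11, Rpl21, Rpl32l, Rpl35a, Rps15a and Rps24. For this setting the share of all probe sets at an unadjusted p under 0.05 is not given here. These counts can therefore not be set against it.

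The overlap between arrays was then counted. Every day 7 array lay below every intact array for 19 members (30.2%), where 8.15% of all probe sets did so, and the reverse held for 0 members and 6.11% of probe sets. At day 1 the counts were 12 members lower (19%, against 8.94%) and 0 higher (7.42%), and at day 3 they were 4 lower (6.35%, against 6.68%) and 0 higher (7.19%). The day 7 members were 9 of the large subunit and 10 of the small. They included Rpl11, which with Rpl5 forms the 5S particle that binds Mdm2, Rps23 of the decoding centre, Rps14 of the platform, and Rps20 and Rps29 of the head. Without the 3 arrays, which leaves 2 arrays on each of these days, 12, 4 and 20 members were lower at days 1, 3 and 7, against 14%, 13.4% and 13.2% of probe sets. Then 4, 8 and 1 members were higher, against 14.1%, 14.1% and 14.2% of probe sets.

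**Figure D3:**
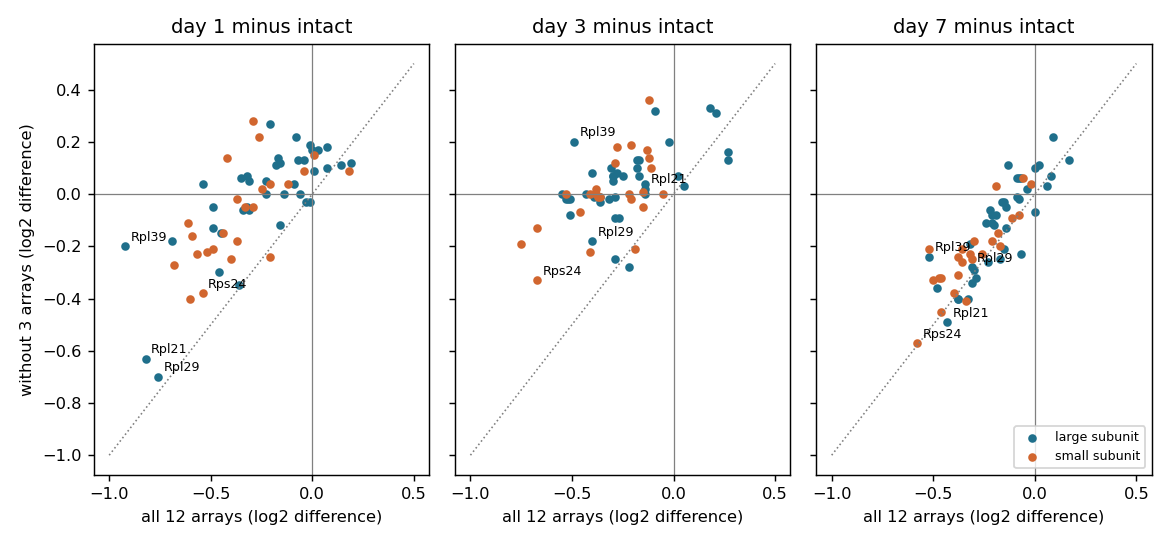
Each point is a gene, placed by its log2 difference from intact samples over all 12 arrays (x axis) and without the 3 arrays of weakest control separation (y axis), for days 1, 3 and 7, and the dotted line marks equal values. At days 1 and 3 most points lie above the dotted line and spread around 0 on the y axis, and at day 7 most stay below 0 on both axes.

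Rps24 and Rps15, small subunit proteins, were lower on all 9 resected arrays than on all 3 intact arrays, which held for 0.919% of all probe sets in that direction. None of the 63 lay higher on all 9, against 0.518% of probe sets. Rps24, which is mutated in some families with Diamond-Blackfan anaemia, read 9.73, 9.72 and 9.82 in intact samples, 9.44, 8.90 and 9.32 at day 1, 8.41, 9.49 and 9.37 at day 3, and 9.22, 9.15 and 9.16 at day 7. The day 7 arrays were close together, with an SD of 0.03, whereas those of day 3 spread with an SD of 0.59. Its differences were -0.54 ± 0.25, -0.67 ± 0.25 and -0.58 ± 0.25 at days 1, 3 and 7 (log2, SE, limma adjusted p = 0.564, 1 and 0.837). Without the 3 arrays they were -0.38, -0.33 and -0.57, and the limma adjusted p at day 7 was 0.112. Of 23 alternatives, 19 kept Rps24 at an unadjusted p under 0.05 at day 3 and 12 did so at day 7.

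Rps15, of the small subunit head, was singled out after its values were seen. It read 10.23, 10.13 and 10.19 in intact samples, 9.86, 9.13 and 10.08 at day 1, 9.41, 10.07 and 9.86 at day 3, and 10.04, 9.64 and 9.81 at day 7. Several resected arrays were only just under the lowest intact value, as at day 1 replicate 3. The differences were -0.49 ± 0.25, -0.41 ± 0.25 and -0.36 ± 0.25, with limma adjusted p of 0.582, 1 and 1. The 3 comparisons share the intact arrays, so their common sign is not 3 separate results.

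**Figure D4:**
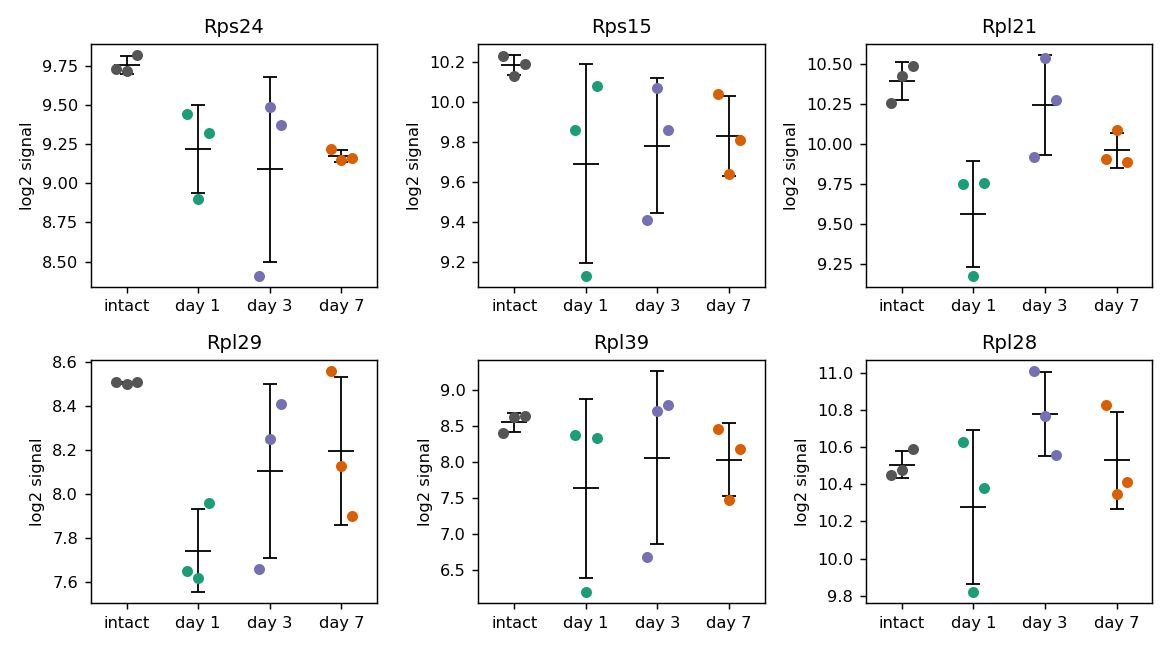
The log2 signal of Rps24, Rps15, Rpl21, Rpl29, Rpl39 and Rpl28 is shown for every array by group, with the mean and SD of 3 arrays as bars, and each panel has its own axis that does not start at 0. Rps24 and Rps15 lie under all intact values on every resected array, Rpl21 and Rpl29 lie low on all 3 day 1 arrays, and Rpl39 is low on day 1 replicate 2 (6.20) and day 3 replicate 1 (6.68).

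Between the days no member passed the test. In limma 0 of 63 had an adjusted p under 0.05 between day 3 and day 1, day 7 and day 3, or day 7 and day 1, as for all probe sets (0% each). At an unadjusted p under 0.05 there were 3 between day 3 and day 1, namely Rpl21 and Rpl28 higher at day 3 and Rpl10l lower, or 4.76% against 9.6% of all. No member reached that level in the other pairs of days, where 5.12% and 6.74% of probe sets did. The median differences were 0.05 for day 3 minus day 1, 0.06 for day 7 minus day 3 and 0.07 for day 7 minus day 1, with 28, 26 and 24 of 63 members lower. Both comparisons with day 7 turned without the 3 arrays: day 7 minus day 3 then had a median of -0.20 and day 7 minus day 1 of -0.10, each with 55 of 63 members lower, while the probe sets above the limit had 0.00 and 0.04. A moderated F test over the 4 groups called 0 members, where 0.00901% of probe sets passed, with 2 at an unadjusted p under 0.05, Rpl21 and Rpl29, or 3.17% against 7.34%.

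Small subunit members lay lower than large subunit members on the arrays where the family was low. The large subunit median exceeded the small by 0.23 on day 1 replicate 2, 0.22 on day 3 replicate 1, and 0.18 and 0.20 on day 7 replicates 2 and 3. On the other 8 arrays it lay between -0.02 and 0.14. As medians of group differences, the large and small subunits stood at -0.18 and -0.37 at day 1, both at -0.29 at day 3, and at -0.16 and -0.33 at day 7. All 24 small subunit members were lower in mean at day 7, as were 34 of the 39 large. These are descriptions over genes measured on the same arrays, with no test.

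Members were also read by their role, as medians of group differences with no test between roles. Rplp0 and Rplp1, of the stalk that recruits elongation factors, had a median of -0.25 at day 1, -0.45 at day 3 and -0.20 at day 7, and 0.03, 0.00 and -0.07 without the 3 arrays. Rpl5 and Rpl11 of the 5S particle had -0.24, -0.35 and -0.19, and without the 3 arrays -0.05, 0.05 and -0.15. For 3 exit tunnel proteins the medians were -0.31, -0.17 and -0.20, and without the 3 arrays -0.06, 0.07 and -0.12. On day 3 replicate 1 the stalk stood at -1.37 and the exit tunnel proteins, Rpl4 among them, at -0.64. The 9 measured head proteins of the small subunit had medians of -0.29, -0.38 and -0.36, which were -0.05, 0.00 and -0.24 without the 3 arrays. Over 12 genes mutated in Diamond-Blackfan anaemia they were -0.29, -0.27 and -0.31, and 0.02, 0.00 and -0.22 without the 3 arrays. All 11 universal small subunit proteins were lower in mean on each day, with medians of -0.40, -0.29 and -0.36, and without the 3 arrays -0.15, 0.00 and -0.26. Of the large subunit paralogs on a set list, 5 were measured, and 1 of them was above the background limit. Their medians were 0.07, -0.22 and -0.07, with 4 of 5 higher in mean at day 1. Rpl32l, which has a like name but was not on that list, was above the limit and differed by -0.36, -0.27 and -0.33. In none of these groups did a member pass an adjusted p of 0.05 in limma.

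Single members of known interest varied in how far they followed the family. Rps6, the ribosomal protein phosphorylated by S6 kinase, had values of 9.72, 9.73 and 9.71 in intact samples and 9.41, 8.60 and 9.59 at day 1, all lower. Rpsa, also known as the laminin receptor, differed by -0.21 ± 0.31, -0.29 ± 0.31 and -0.02 ± 0.31, and on day 1 replicate 2 it read 7.86, between the 8.07 and 7.43 of the other day 1 arrays. Rpl41, the smallest ribosomal protein, differed by -0.17 ± 0.32, -0.36 ± 0.32 and -0.07 ± 0.32. Rps25 was the only member above both other arrays on day 1 replicate 2, at 9.06 against 8.67 and 8.91. Rps7 stayed within 0.06 of its intact mean at every day, with differences of 0.01, -0.05 and -0.06, each with an SE of 0.18.

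Members with and without a run of at least 8 pyrimidines in a listed start window were low on the same arrays. Runs were counted anywhere in the window, so a run need not lie at the start of the mRNA. On day 1 replicate 2 the median gap to the other arrays of the group was -0.88 for 21 members with a run and -0.59 for 29 without. On day 3 replicate 1 it was -1.10 and -0.90, and the 13 members with no listed start had -0.72 and -0.70 on these arrays. At day 7 against intact the medians were -0.22, -0.21 and -0.20. Rpl28 and Rpl4, whose windows above hold runs, were among those that did not go down on day 3 replicate 1. The run of Rpl4 ends before the listed start, and that of Rpl39 begins after it.

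Other genes of translation were read beside the family. The closest list was that of elongation factors together with Tpt1, whose mRNAs also tend to carry the pyrimidine tract. Its 7 genes had medians of -0.33, -0.32 and -0.22 at days 1, 3 and 7, -0.09, -0.05 and -0.09 without the 3 arrays, and -0.80 on day 3 replicate 1. Eef2, which moves the ribosome along the mRNA, read 9.47 on that array against 10.37 to 10.58 in intact samples. Eef1a1, which brings the aminoacyl tRNA, read 11.63 there against 11.65 to 11.81. Fau and Rpl36al, ribosomal protein genes that the symbol rule does not take, had medians of -1.26 on day 1 replicate 2 and -1.12 on day 3 replicate 1.

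Lists further from the ribosome moved less on day 3 replicate 1. There the median was -0.33 over 22 initiation factors, -0.10 over 29 nucleolar assembly factors, -0.15 over 21 genes of RNA polymerases I and III, -0.36 over 48 large and -0.07 over 28 small mitochondrial ribosomal proteins. In that order, 19, 13, 5, 10 and 3 of these genes were above the background limit. All 7 genes of the elongation list and 56 of the 63 members were above it. The part of nearness to background in these medians was not tested. Ncl and Npm1, nucleolar proteins, read 7.83 and 9.56 on day 3 replicate 1, higher than the mean of the intact arrays at 7.54 and 9.31. Day 1 replicate 2 was low for all of these lists, between -0.47 and -0.24. On day 7 replicate 2, where the family stood at -0.33, the polymerases were at -0.50, the large mitochondrial proteins at -0.48, the initiation factors at -0.36, the small mitochondrial proteins at -0.33 and the nucleolar factors at -0.28. By day, no gene of the pathway lists passed an adjusted p of 0.05 in limma, and at an unadjusted p under 0.05 there were 4 of 20 genes of mTORC1 and tract control lower at day 1, where 8.94% of all probe sets reached it in either direction, and at most 1 in either direction in every other list and day.

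**Figure D5:**
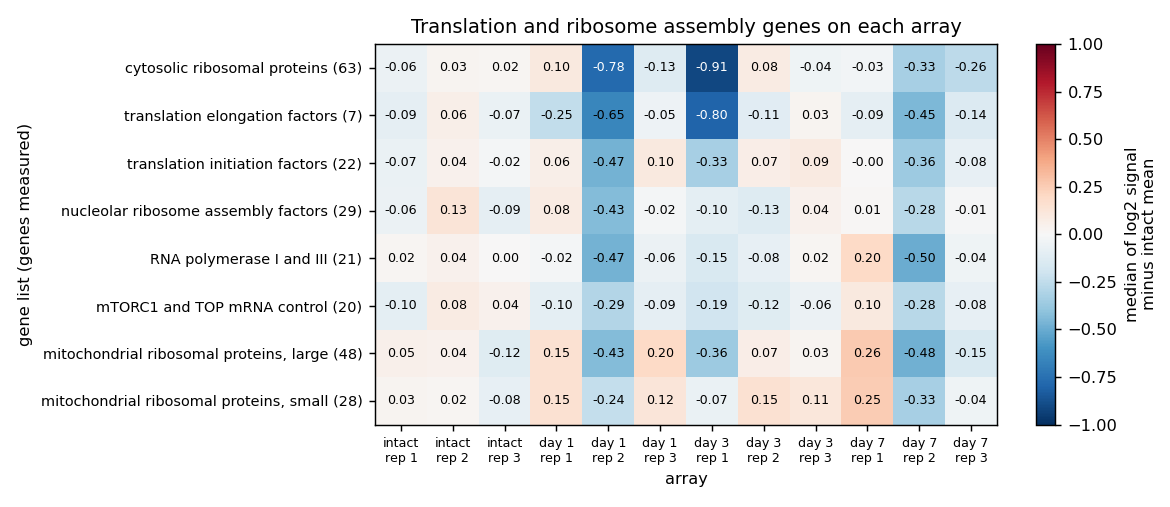
Colours and numbers give the median log2 signal minus the intact mean for 8 gene lists (vertical axis, with the number of genes measured) on each of the 12 arrays (horizontal axis). Cytosolic ribosomal proteins (-0.91) and elongation factors with Tpt1 (-0.80) are far lower than the other lists on day 3 replicate 1, while on day 1 replicate 2 all 8 lists are low. Most genes of the nucleolar, polymerase, mTORC1 and mitochondrial lists were not above the background limit.

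Regulators of the family showed values of their own. Myc, which drives transcription of ribosome genes, read 6.85, 6.70 and 6.89 in intact samples, 5.97, 5.57 and 5.84 at day 1, 5.70, 5.65 and 6.35 at day 3, and 7.24, 6.13 and 6.08 at day 7. It was low on every array of days 1 and 3, with differences of -1.02 ± 0.29 (limma adjusted p = 0.333) and -0.92 ± 0.29 (adjusted p = 0.843). Without the 3 arrays they were -0.91 and -0.82. Polr3d, a subunit of RNA polymerase III under the background limit of 5.69 on all 12 arrays, differed by -1.53 ± 0.42 at day 1 (limma adjusted p = 0.313), and by -1.05 without the 3 arrays, where it passed with an adjusted p of 0.038. Eif4ebp2, a repressor of cap-dependent translation, was under that limit on all 12 arrays too and differed by -0.80 ± 0.21 at day 1 (limma adjusted p = 0.289), and Larp1 by 0.05 ± 0.16.

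The cells carried alveolar macrophage markers in all groups. Siglecf averaged 8.79 ± 0.13 (log2, SD, n = 3) on the intact arrays and read 7.89 on day 1 replicate 2. Of 11 macrophage markers measured 10 were above the background limit, and their mean level was 9.11 to 9.32 on intact arrays, 8.52 to 9.40 at day 1, 8.81 to 9.17 at day 3 and 9.01 to 9.51 at day 7. Neutrophil markers had mean levels of 7.02 to 7.51, 7.40 to 8.52, 7.57 to 8.46 and 7.98 to 8.61, with 9, 8 and 10 of 11 higher in mean at days 1, 3 and 7, and Camp and Ltf near background in every group. Endothelial markers went from 6.33 to 7.33 on intact arrays to 4.01 to 6.03 at day 1, 4.93 to 6.69 at day 3 and 4.90 to 6.24 at day 7, with all 7 lower each day and Tie1 near background throughout. Eosinophil markers, 2 of 5 above the limit, had mean levels of 4.27 to 5.66, 3.87 to 4.68, 4.46 to 5.76 and 4.76 to 6.62. Of these 5, 0, 3 and 3 were higher in mean at days 1, 3 and 7. Type 2 alveolar cell markers were at 6.65 to 7.22, 4.35 to 6.39, 5.67 to 6.70 and 5.40 to 5.70, with all 9 lower each day. Of the 9, 5 were above the limit, and Sftpd, Lamp3 and Muc1 were near background in every group. Day 1 replicate 2 and day 3 replicate 1 stood apart here as well. Relative to intact means, the endothelial median was -3.03 on day 1 replicate 2 against -1.31 and -1.02 on the other day 1 arrays, and -0.12 on day 3 replicate 1 against -2.02 and -1.60. The type 2 median was -0.31 on day 3 replicate 1 against -1.36 and -1.46, and the type 1 median 0.18 against -0.76 and -0.61. Airway epithelium went the other way on that array, at -1.17 against -0.63 and -0.49, with 3 of 7 markers above the limit. The median of fibroblast and smooth muscle markers, 1 of 8 above the limit, was -0.74 there against -1.42 and -0.83. Of 5 type 1 markers measured 2 were above the limit. The part of these other cells in the values of the ribosomal protein genes was not tested.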

How the data were processed

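The authors deposited log2 signals, 1 per probe set and array. RMA and the Transcriptome Analysis Console are named in the submitters' processing notes, without versions. The genome build is not given in the sources used here. Of 28846 probe sets, 6640 controls were left out of the tests and 22206 were tested, 19572 of them with exactly 1 symbol in a platform annotation that can be old. The number of arrays limits precision.

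limma 3.58.1 in R 4.3.3 fitted 1 model over all 12 arrays with group as the only term and Benjamini-Hochberg adjustment over all probe sets, at a two-sided threshold of 0.05. An exact permutation test of 3 against 3 arrays cannot go below 0.1. Members, lists and tests were chosen with earlier results of these data known. Members were named as the 4 largest rises and falls of each day among bright ones, plus fixed members and the paralogs with their main copies, and a few others were named after their values were seen. Genes of other lists were named as fixed genes plus the 2 of smallest p. A list's level on an array is the median of its genes' differences from their own intact mean.

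Alternatives were quantile normalization, median centring, a filter on dim probe sets, array weights, trended and robust moderation, only the groups compared, 1 probe set per gene, a replicate block, and each array left out. Leaving out the 3 arrays with control separation under 0.84 or the 3 with dap above 5, and dap as a block, were added after seeing the data. Same-numbered replicates did not deviate together: r ran from -0.2413 to 0.2584 over 18 pairs, and 3 were above 0.1. The fit was tested on simulated data with independent noise, where 52% of 50 genes changed 2-fold at day 1 and 94% of 50 changed 4-fold were recovered. Smaller differences, as in most members, were not simulated, nor were arrays on which many genes are low together. Start windows came from RefSeq's table on GRCm38.p6.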

Additional observations from a re-analysis of the deposited data

How the results depend on the processing

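The count of members past an adjusted p of 0.05 was 0 in every comparison and every alternative. With a replicate block it was 0 as well, and the members at an unadjusted p under 0.05 at day 7 went from 1 to 0. No other call changed with the block. Leaving out 1 array moved the median difference between -0.471 and 0.001 at day 1, -0.455 and 0.004 at day 3, and -0.298 and -0.178 at day 7. The upper ends came without day 1 replicate 2, day 3 replicate 1 and day 7 replicate 2. Large minus small subunit ran from 0.12 to 0.206, 0.011 to 0.088 and 0.109 to 0.174. Members at an unadjusted p under 0.05 ran from 2 to 10, 0 to 7 and 0 to 3 with 1 array left out. At day 7 they were 10 with only the groups compared and 8 with array weights, and at day 1 5 and 4. The share of all probe sets at that level under each alternative is not given here. These counts therefore do not show a change particular to the members. Without the 3 arrays with the labelling control, the day 7 median was -0.031 and large minus small was 0.066. With the weakly separating arrays left out, 1 other pathway gene was called at day 1, Polr3d, and 1 at day 7, Mrps10 (0.95, limma adjusted p = 0.024). In that setting 0.32% and 1.26% of all probe sets passed on those days. Array weights called 1 at day 7, Rraga (-0.71, limma adjusted p = 0.0289), and the share of all probe sets called with them is not given here. In the main fit Mrps10 differed by 0.55 and Rraga by -0.57 at day 7 (limma adjusted p = 0.999 and 0.676). The cause of these changes in calls was not tested. Each member has 1 probe set, so a mean over probe sets could give no other value and was not run.

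With 3 arrays a group, and the lowest values of days 1 and 3 lying on single arrays, the differences of most members are near their standard errors. These differences are around 0.2 to 0.4 on the log2 scale. In limma, the smallest adjusted p of any member was 0.286 at day 1, 1 at day 3 and 0.837 at day 7.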
